A study of Homo sapiens with 18 samples.

Results

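Unstimulated PCL12 cells were compared with unstimulated HG3 cells, gene by gene, in 3 libraries of each line. Both are continuous lines of chronic lymphocytic leukemia (CLL) B cells that carry Epstein-Barr virus (EBV) and unmutated IGHV genes, and each line stands for 1 leukemia, so a difference between them cannot be told apart from a difference between 1 clone and another. The 6 libraries belong to a series of 18, in which HG3, PCL12 and a further EBV-positive CLL line with mutated IGHV genes, MEC2, were sequenced without stimulation and after 4 h with 2.5 µg/ml of the CpG oligonucleotide ODN-2006. All cells were grown in RPMI with 10% fetal bovine serum, and the 6 libraries compared received no CpG. Of 56609 gene symbols in the count table, the 14101 whose mean over the 6 libraries reached 1 CPM (counts scaled to a library of 1000000 counts) were compared. Viral transcripts were not analysed here.

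A B cell carries 1 antigen receptor, built from a heavy chain and either a kappa or a lambda light chain, and all cells of a clone share it. CLL is a clonal growth of mature B cells that typically display CD5, CD23 and little surface immunoglobulin, and that depend on signals from the antigen receptor, Toll-like receptors, chemokines and neighbouring cells. The most frequent genomic lesion of the disease is a deletion at 13q14, a segment that holds the DLEU genes and the microRNAs miR-15a and miR-16-1. Growth of B cells carried by EBV latency proteins runs largely through NF-kB and turns on activation antigens, antigen presentation genes and chemokines.

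The HG3 libraries held 21228773 to 46642886 counts and the PCL12 libraries 25339196 to 42127737, so that a count of 0 allowed up to 0.0659 to 0.155 CPM, counting error only. Mitochondrial genes took 20.2% of the counts of HG3 replicate 2 and 3.58% to 8.21% in the other 5 libraries. All 10 B-cell markers examined (MS4A1, CD79A, PAX5 and others) were measured in both lines, and their summed level was 5313 to 7533 CPM in PCL12 and 7507 to 9835 CPM in HG3. TRAC, the T-cell receptor alpha constant gene, stood at 56.8 to 140.1 CPM in the 6 libraries, while CD3E was at most 2.37 CPM, the monocyte marker LYZ at most 0.116 CPM and FCN1 at 0 throughout. Summed myeloid markers were 0.962 to 2.71 CPM in PCL12 and 5.63 to 8.92 CPM in HG3, summed epithelial markers 6.80 to 34.7 CPM and 8.64 to 51.95 CPM, and summed fibroblast and endothelial markers 11.4 to 21.4 CPM and 48.5 to 94.0 CPM, most of it COL1A1. PCL12 replicates 2 and 3 also held transcripts abundant in MEC2. The genes taken were 51 outside the immunoglobulin segments with at least 20 CPM in every unstimulated MEC2 library. Their level in PCL12 replicate 1, both unstimulated and with CpG, was at most 10% of the MEC2 mean. The median was 2.16% of the MEC2 level in unstimulated PCL12 replicate 1, held low by this choice. It was 27.2% in replicate 2 and 31.1% in replicate 3. The T-cell costimulatory gene CD28 is an example, with 0.160, 17.2 and 24.5 CPM in PCL12 replicates 1 to 3, at most 0.659 CPM in HG3 and 48.9 to 58.4 CPM in MEC2. Each difference was therefore also read in PCL12 replicate 1 on its own. A difference was counted as seen there when that library lay outside the range of the HG3 libraries on the same side and its log2(CPM + 0.5) differed from the HG3 mean by at least 1. The labels do not say that replicates came from separate cultures, so the p-values measure the spread between these libraries, which may be technical.

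At an edgeR adjusted p under 0.05 and an absolute log2 fold change (log2FC, PCL12 minus HG3) of at least 1, 1132 genes were higher in PCL12 (8.03% of the genes compared) and 1074 were lower (7.62%). In PCL12 replicate 1 the difference was seen for 1032 of the higher genes (91.2% of them, 7.32% of all genes compared) and for 980 of the lower genes (91.2% and 6.95%). With PCL12 replicate 1 as the sole library of its line, and the spread taken from the other groups, 644 genes were higher (4.57%) and 609 lower (4.32%), of which 630 and 504 were among those above. The groups did not overlap for 2464 genes higher in PCL12 (17.5%) and 2162 genes lower (15.3%). Protein-coding genes made up 997 of the higher and 889 of the lower genes, and long noncoding RNAs 38 and 69. The median log2FC was 2.70 among the higher genes and -2.43 among the lower genes, against 0.0042 over all genes compared. For 56 of the higher genes every PCL12 library had at least 10 CPM and every HG3 library less than 1 CPM, and 62 of the lower genes showed the reverse. Where both lines had received CpG, 904 of the 1132 higher and 860 of the 1074 lower genes passed the same rule in the same direction. Only EEF1AKMT2, a lysine methyltransferase of an elongation factor named after its values were seen, had an opposite sign there.

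**Figure D1:**
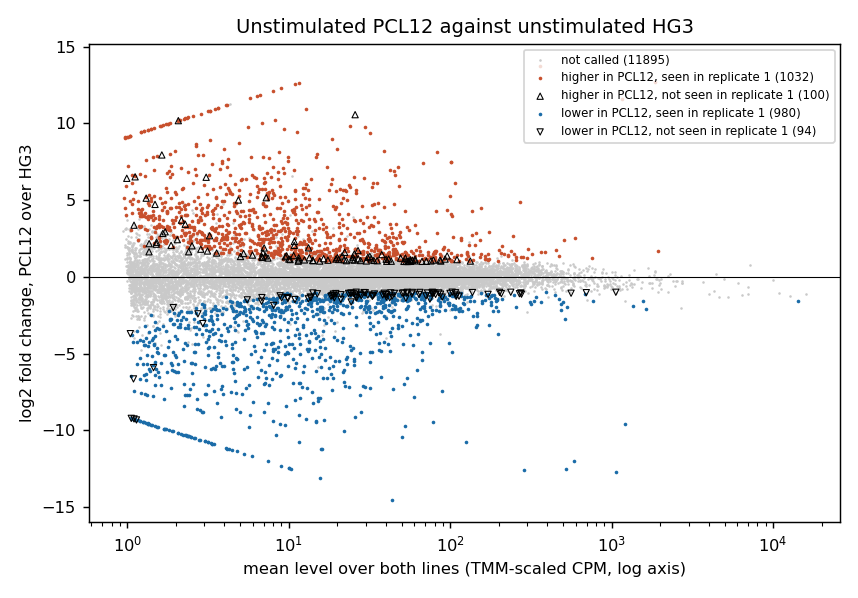
Each point is 1 of 14101 genes, with mean CPM over the 6 libraries on a log axis against log2FC (PCL12 minus HG3); coloured points passed the test and were seen in PCL12 replicate 1 (1032 higher, 980 lower), triangles passed but were not seen there (100 higher, 94 lower), and 11895 grey points did not pass. Passing genes spread over the whole range of levels in both directions.

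Immunoglobulin genes were among those with the widest differences, and the lines carried opposite light chains. IGKC, the kappa constant gene (chr2:88857161-88857683, minus strand, GRCh38), had 5444, 2665 and 2993 CPM in the 3 PCL12 libraries and 0.264, 1.60 and 0.105 CPM in HG3 (log2FC 12.71 ± 0.84 SE, n = 3 per line, edgeR adjusted p = 1.53e-08). The lambda constant gene IGLC2 (chr22:22900976-22901437, plus strand) showed the reverse, with 5.26, 2.43 and 1.79 CPM in PCL12 and 2348, 3900 and 988.8 CPM in HG3 (log2FC -9.58 ± 0.84, edgeR adjusted p = 1.53e-06). Its neighbour IGLC3, a near copy that shares reads with it, was at 0.257, 0.499 and 0.232 CPM against 1904, 3631 and 890.0 CPM. PCL12 was thus rich in kappa and HG3 in lambda transcripts, in every library of each line. In bulk RNA, fewer cells with a transcript and less of it per cell cannot be told apart.

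Among heavy chains, IGHM was the most abundant in both lines and did not pass the test. Its levels were 12570, 6171 and 8268 CPM in PCL12 and 8181, 5419 and 2455 CPM in HG3 (log2FC 0.75 ± 0.40, edgeR adjusted p = 0.274), and the groups overlapped. IGHD, which encodes the delta chain made by splicing together with mu, was lower in PCL12, at 349.9, 234.9 and 129.2 CPM against 820.5, 834.1 and 617.6 CPM (log2FC -1.67 ± 0.33, edgeR adjusted p = 0.00103). The alpha constant genes were higher in PCL12. IGHA1 stood at 316.0, 158.3 and 128.6 CPM against 2.09, 0.825 and 0.368 CPM (log2FC 7.48 ± 0.90, edgeR adjusted p = 7.11e-05), and IGHA2, which shares much of its sequence, at 221.9, 108.9 and 73.7 CPM against at most 1.19 CPM. Alpha transcripts amounted to a small share of mu transcripts in each PCL12 library and were not more abundant in MEC2, where IGHA1 was at most 2.12 CPM.

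The variable segments separated the clones in the same way, and the ones given here were chosen after their values were seen. IGKV4-1 reached 3351, 1763 and 1851 CPM in PCL12 and at most 2.48 CPM in HG3. IGHV3-30 reached 1109, 435.6 and 615.6 CPM in PCL12 and at most 0.132 CPM in HG3, and also stayed at or under 0.531 CPM in MEC2. In HG3, IGHV1-2 stood at 1133, 164.4 and 426.5 CPM, IGLV2-23 at 1819, 975.2 and 734.6 CPM and IGLV3-21 at 1458, 1033 and 658.6 CPM, and none of the 3 exceeded 0.642 CPM in PCL12. Reads of variable segments can be shared between near-identical segments, so the assignment to a single segment is uncertain. HG3 held both IGLV2-23 and IGLV3-21 at high levels, although a receptor is built with a single light chain, and the reason was not tested. IGHV4-59 and IGHG1 passed the test without being seen in PCL12 replicate 1. IGHV4-59 was at 0.513, 73.3 and 80.7 CPM in PCL12, at most 0.155 CPM in HG3 and 238.4 to 373.1 CPM in MEC2, and IGHG1 at 0.0962, 6.67 and 11.6 CPM, at most 0.154 CPM and 16.7 to 23.9 CPM.

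Outside the immunoglobulin loci, the 10 autosomal genes with the smallest p-values on the PCL12 side were led by SLC12A8, a solute carrier. Its levels were 110.3, 73.0 and 84.7 CPM in PCL12 and 0.528, 1.34 and 0.4999 CPM in HG3 (chr3:125082636-125212864, log2FC 6.91 ± 0.35, edgeR adjusted p = 1.32e-12), with no overlap. TRBC2, a T-cell receptor beta constant gene with a near-identical copy, followed at 124.1, 72.5 and 54.4 CPM against 0.462, 0.980 and 0.658 CPM (log2FC 6.95 ± 0.40, edgeR adjusted p = 7.28e-12). BANK1, a B-cell scaffold that links the antigen receptor to calcium release, was at 27.0, 26.9 and 35.5 CPM in PCL12 and 0.198, 0 and 0.0789 CPM in HG3 (log2FC 8.02 ± 0.48, edgeR adjusted p = 1.45e-11). BANK1 was near the floor in HG3, SLC12A8 and TRBC2 stood above it there, and in none did the lines overlap.

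The other genes of this group included regulators of transcription, iron and cytokine receptors. The histone demethylase KDM5B stood at 50.5, 32.8 and 31.8 CPM in PCL12 and at most 0.877 CPM in HG3, and the bZIP repressor JDP2 at 56.1, 41.2 and 36.9 CPM against at most 1.55 CPM. TFR2, transferrin receptor 2, had 24.6, 18.7 and 33.2 CPM in PCL12 and 1 count in the whole of HG3, a ratio of 2737 with a 95% counting interval of 490.9 to 108200. CSF2RB, the shared beta chain of the IL-3, IL-5 and GM-CSF receptors, was at 40.1, 34.3 and 54.0 CPM against at most 0.974 CPM (log2FC 5.64 ± 0.40, edgeR adjusted p = 3.12e-10). The unconventional myosin MYO1D had 67.0 to 84.5 CPM in PCL12 and 2.48 to 3.67 CPM in HG3. The zinc finger gene ZNF831 had 7.31, 9.41 and 7.94 CPM in PCL12 and no count in HG3, at least 82.3-fold higher against a floor of 3 counts per library. CEND1 had 17.3, 24.1 and 25.8 CPM against 3 counts in all (ratio 780.0, 95% counting interval 266.6 to 3785).

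By difference in CPM, the 8 leading autosomal genes of the PCL12 side outside the immunoglobulin segments were LCP1, CCL22, COTL1, CORO1A, PPP1R16B, ITGB7, TCF3 and PGGHG, of which CCL22, ITGB7 and TCF3 are described with their gene lists. LCP1, the leukocyte actin-bundling protein L-plastin, was at 2504, 3219 and 3215 CPM against 1081, 520.4 and 1149 CPM (log2FC 1.70 ± 0.31, edgeR adjusted p = 0.000398). COTL1, a coactosin-like actin-binding protein, was at 1089, 631.6 and 836.0 CPM against 197.0, 129.1 and 147.5 CPM (log2FC 2.43 ± 0.29, edgeR adjusted p = 1.64e-06), and CORO1A, the leukocyte coronin, at 905.5 to 1258 CPM against 388.3 to 485.1 CPM. PPP1R16B, a regulatory subunit of protein phosphatase 1, was at 587.9, 483.9 and 502.0 CPM against 27.7, 5.16 and 21.1 CPM (log2FC 4.86 ± 0.42, edgeR adjusted p = 1.49e-08). PGGHG, a glucosidase of hydroxylysine-linked sugars, was at 499.0 to 654.5 CPM against 151.6 to 238.0 CPM. In each of these the libraries of the lines did not overlap.

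On the HG3 side, MUC15, a membrane mucin, ranked first. It had no count in any PCL12 library and 55.2, 142.8 and 62.0 CPM in HG3 (chr11:26559032-26572263, minus strand), at least 953.1-fold lower in PCL12 (edgeR adjusted p = 4.86e-12). PLD1, phospholipase D1, was at 1.80, 1.498 and 2.28 CPM in PCL12 and 125.6, 73.6 and 169.6 CPM in HG3 (log2FC -6.04 ± 0.36, edgeR adjusted p = 1.45e-11). DAPK1, a calmodulin-dependent death-associated kinase, was at 0.0962, 0.499 and 0.0929 CPM against 115.7, 86.9 and 267.0 CPM (log2FC -9.49 ± 0.67, edgeR adjusted p = 1.23e-08). In all of these every PCL12 library lay below every HG3 library.

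Other genes of the HG3 side included MYRF and ABCA12, which are better known from non-lymphoid tissues. MYRF, a membrane-bound regulator of myelin genes, had 0.998 to 1.19 CPM in PCL12 and 80.7 to 144.6 CPM in HG3, and ABCA12, a lipid transporter of the epidermis, 0.257 to 0.499 CPM and 27.7 to 83.6 CPM. RND3, an atypical small GTPase, had 0.224 to 0.321 CPM against 36.5 to 77.4 CPM, and the scavenger receptor family member SCART1 had 2.31 to 3.89 CPM against 64.4 to 102.3 CPM. PLPPR1 had 1 count in PCL12 and 22.5, 23.9 and 48.7 CPM in HG3 (ratio 3317, 95% counting interval 594.8 to 131000). The tubulin gene TUBA3C and the antisense RNA TMEM132D-AS1 had no count in PCL12, at least 341.9-fold and 227.2-fold lower than in HG3. By absolute level, genes lower in PCL12 included HLA-DRA, FCER2, TNFAIP3 and AHNAK, a giant scaffold protein. AHNAK, at 87.1, 186.5 and 121.3 CPM against 813.3, 309.7 and 1573 CPM, had an edgeR adjusted p of 0.0456 and passed in 1 of the 6 leave-one-out fits (1 library left out at a time). RPS18 and TMSB10 also belonged to this group, RPS18 with uncertain reads because of its pseudogenes, and both were highest in HG3 replicate 2 (3699 and 1901 CPM), the library rich in mitochondrial counts.

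Of 35 surface molecules of B cells compared, 4 were higher and 10 lower in PCL12 (11.4% and 28.6%), and the median log2FC was -0.42. All 14 were seen in PCL12 replicate 1, while 4 and 2 of them passed with replicate 1 as the sole PCL12 library. CD27, a TNF receptor of memory B cells, was at 281.3, 164.5 and 145.5 CPM in PCL12 and 26.6, 48.2 and 36.9 CPM in HG3 (log2FC 2.41 ± 0.32, edgeR adjusted p = 7.49e-06). CD38, an ectoenzyme and marker of aggressive CLL, was at 68.3, 40.8 and 45.3 CPM against 18.6, 19.3 and 18.2 CPM (log2FC 1.46 ± 0.25, edgeR adjusted p = 0.00017). CR1, a complement receptor, and FCRLA, an intracellular Fc receptor-like protein, were higher as well, with log2FC 2.57 and 2.36.

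CD5 and FCER2, the low-affinity IgE receptor CD23, are the antigens by which CLL is commonly recognised, and both were lower in PCL12. CD5 (chr11:61102489-61127852) was at 1.35, 1.25 and 0.0929 CPM in PCL12 and 24.1, 40.6 and 69.6 CPM in HG3 (log2FC -5.67 ± 0.91, edgeR adjusted p = 0.000614), and at most 0.0570 CPM in MEC2. FCER2 was at 744.5, 679.6 and 302.8 CPM against 1503, 3248 and 1650 CPM (log2FC -1.89 ± 0.35, edgeR adjusted p = 0.00044). Neither gene overlapped between the lines. The tetraspanin CD37, the Fc receptor-like gene FCRL2, the costimulatory molecules CD70 and CD86 and the SLAM family members LY9, SLAMF1 and SLAMF6 were also lower, of which LY9, at 2.37 to 7.52 CPM against 32.8 to 139.3 CPM, had the largest fold (log2FC -3.68 ± 1.01, edgeR adjusted p = 0.0375) and passed in 2 of 6 leave-one-out fits, while SLAMF1 passed in 1. MS4A1, which encodes CD20, and CD79A, a signalling chain of the receptor, did not pass (log2FC -0.57 and 0.50, edgeR adjusted p = 0.238 and 0.367).

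Of 18 genes linked to CLL, 7 were higher and 4 lower in PCL12 (38.9% and 22.2%), with a median log2FC of 0.99, 6 and 4 of them were seen in replicate 1, and 6 and 1 of them passed with replicate 1 as the sole PCL12 library. TCL1A, an AKT coactivator whose overexpression drives CLL-like disease in mice, was at 81.2, 36.4 and 60.1 CPM in PCL12 and 0, 0.310 and 0 CPM in HG3 (chr14:95709947-95714196, log2FC 9.79 ± 0.94, edgeR adjusted p = 3.20e-06). CRY1, a circadian repressor, was at 19.2, 26.6 and 28.7 CPM against at most 1.08 CPM (log2FC 5.78 ± 0.61), and DTX1, a Notch pathway E3 ligase, at 360.5, 185.9 and 163.5 CPM against 23.9, 31.2 and 52.1 CPM (log2FC 2.73 ± 0.33, edgeR adjusted p = 1.89e-06).

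On the other side of that list, ROR1, an oncofetal receptor displayed on CLL cells, was at 0.353, 0.250 and 0.209 CPM in PCL12 and 11.6, 2.22 and 30.5 CPM in HG3 (log2FC -5.77 ± 1.13, edgeR adjusted p = 0.00243). CD200, an inhibitory ligand of CLL cells, was at 21.4 to 27.8 CPM against 53.8 to 94.5 CPM (log2FC -1.49 ± 0.32). ROR1 varied widely among the HG3 libraries and CD200 little. The Wnt pathway factor LEF1 was higher in PCL12, at 10.8, 5.81 and 3.18 CPM against at most 1.97 CPM (log2FC 2.24 ± 0.63, edgeR adjusted p = 0.0223). NOTCH2 passed at a log2FC of 1.25 but was not seen in replicate 1, and NOTCH1 and the kinase gene ZAP70 did not pass, with ZAP70 at 58.2 to 103.3 CPM in PCL12 and 48.7 to 85.9 CPM in HG3.

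**Figure D2:**
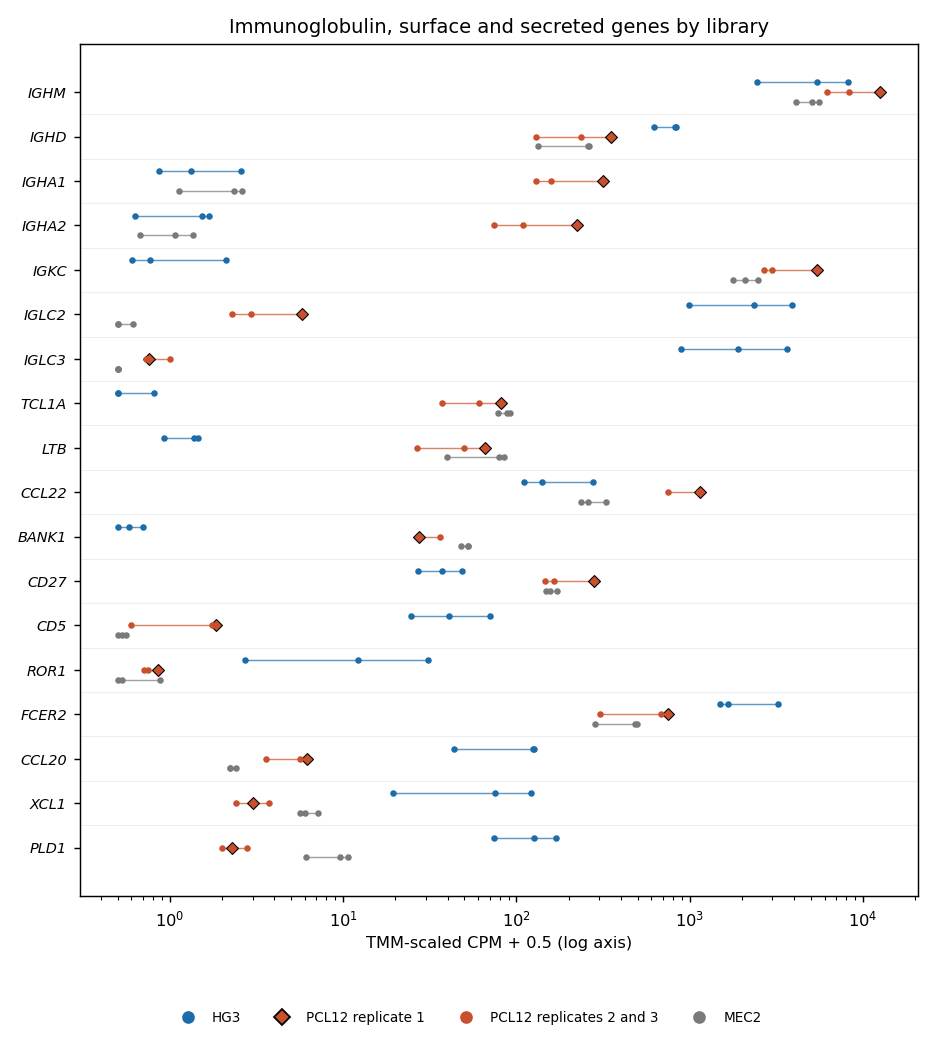
Dots give CPM + 0.5 on a log axis for 18 immunoglobulin, B-cell, CLL and cytokine genes in each unstimulated library of HG3, PCL12 (replicate 1 as a diamond) and MEC2. IGKC, TCL1A, LTB and BANK1 lie low in HG3, and IGLC2, IGLC3, CD5, ROR1, CCL20 and PLD1 lie low in PCL12, replicate 1 included.

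Among B-cell transcription factors 6 of 31 were higher and 1 lower (19.4% and 3.23%), all seen in replicate 1, 3 and 0 of them passing with it as the sole PCL12 library, and a median log2FC of 0.79. TCF3, which encodes the E proteins E12 and E47, was at 732.1, 679.2 and 645.3 CPM in PCL12 and 279.9, 296.3 and 212.5 CPM in HG3 (log2FC 1.38 ± 0.24, edgeR adjusted p = 0.000227). A related E protein gene, TCF4, was at 116.0 to 138.7 CPM against 43.0 to 69.0 CPM (log2FC 1.16 ± 0.23), and PAX5, the factor that maintains B-cell identity, at 317.1, 328.9 and 453.3 CPM against 176.4, 68.7 and 153.5 CPM (log2FC 1.46 ± 0.30, edgeR adjusted p = 0.00156). ID2, which binds E proteins and keeps them off DNA, was the lower gene, at 81.3, 54.5 and 87.5 CPM against 148.6, 269.5 and 297.5 CPM (log2FC -1.68 ± 0.31, edgeR adjusted p = 0.000399). The E protein genes and their inhibitor thus differed in opposite directions, without overlap between the lines. FOXO1 and SPIB passed as well (edgeR adjusted p = 0.0219 and 0.0484), SPIB in 1 of 6 leave-one-out fits. The lower genes of the list numbered 3 without HG3 replicate 1 or HG3 replicate 2 and 2 without PCL12 replicate 2 or PCL12 replicate 3, ID2 being 1 of them each time. The plasma cell factor IRF4 did not pass (log2FC -0.77 ± 0.29, edgeR adjusted p = 0.11).

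Within the plasma cell programme none of 16 genes passed in edgeR, the median log2FC was 0.43, and JCHAIN, the joining chain of secreted IgM and IgA, overlapped between the lines at 410.3 to 713.9 CPM in PCL12 and 272.9 to 1440.0 CPM in HG3. At an unadjusted p under 0.05, 4 of these genes were higher and 0 lower, DESeq2 called 1 and limma-voom 2 higher, and 5 passed without HG3 replicate 1.

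Of 36 genes of B-cell receptor signalling, 7 were higher in PCL12 and 2 lower (19.4% and 5.56%), with a median log2FC of 0.29, and 4 and 0 of them passed with replicate 1 as the sole PCL12 library. SYK, the kinase that first binds the phosphorylated receptor, was at 163.7, 87.2 and 108.4 CPM in PCL12 and 69.0, 18.1 and 32.7 CPM in HG3 (log2FC 1.58 ± 0.36, edgeR adjusted p = 0.00491). RASGRP3, an activator of Ras, was at 109.2 to 138.5 CPM against 31.3 to 50.6 CPM (log2FC 1.71 ± 0.26), and the Src family kinase LCK at 195.9, 119.0 and 137.9 CPM against 80.8, 31.6 and 41.3 CPM (log2FC 1.56 ± 0.30). The guanine exchange factors VAV3, VAV2 and RASGRP2 also passed, with log2FC 2.87, 1.02 and 1.52, VAV2 in 3 and RASGRP2 in 4 of 6 leave-one-out fits. The lower genes were PLCG1 and the adaptor PAG1, with edgeR adjusted p of 0.0323 and 0.034, and each passed in 2 of 6 leave-one-out fits. Neither passed without PCL12 replicate 1, without HG3 replicate 3 or with library totals, and PAG1 overlapped between the lines. BTK was at 102.8 to 145.9 CPM against 55.4 to 148.7 CPM and did not pass.

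Of 23 Toll-like receptor signalling genes, 3 were lower in PCL12 (13.04%), all seen in replicate 1 but 0 passing with it as the sole PCL12 library, and the median log2FC was -0.36. TICAM1, the adaptor TRIF of the TLR3 and TLR4 pathways, was at 41.0, 36.9 and 34.5 CPM in PCL12 and 78.6, 85.0 and 108.1 CPM in HG3 (log2FC -1.27 ± 0.22, edgeR adjusted p = 0.000202). LY86, which encodes MD-1, the partner of RP105 on B cells, was at 21.6 to 34.6 CPM against 70.7 to 92.4 CPM (log2FC -1.52 ± 0.32). LY86 lies on chromosome 6, where 27.9% of all genes compared were lower. LY96, which encodes MD-2, the partner of TLR4, was low in both lines, at 0.488 to 2.39 CPM against 4.29 to 8.20 CPM, and passed in 3 of 6 leave-one-out fits. Over all 6 libraries no member was called higher by edgeR, DESeq2 or limma-voom, and 1 had an unadjusted p under 0.05 on that side, while edgeR called 1 with library totals, without HG3 replicate 1 or without HG3 replicate 2.

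Cytokines and chemokines differed in both directions, with 6 of 34 higher and 10 lower in PCL12 (17.6% and 29.4%), all seen in replicate 1, 5 and 5 of them passing with it alone, and a median log2FC of -0.51. Highest by rank was LTB, lymphotoxin beta, the ligand that shapes lymphoid tissue, at 65.4, 49.0 and 26.1 CPM in PCL12 and 0.945, 0.877 and 0.421 CPM in HG3 (log2FC 5.97 ± 0.51, edgeR adjusted p = 3.53e-08). IL16, a chemoattractant of CD4 cells, was at 597.9, 350.2 and 320.6 CPM against 76.8, 58.1 and 69.8 CPM (log2FC 2.63 ± 0.28, edgeR adjusted p = 2.81e-07). The CCR4 ligands CCL22 and CCL17, which lie near each other on chromosome 16, were higher together. CCL22 was at 1147, 1128 and 749.6 CPM against 139.4, 110.5 and 275.5 CPM (log2FC 2.53 ± 0.34, edgeR adjusted p = 7.03e-06), and CCL17 at 7.57, 11.5 and 7.31 CPM against at most 0.722 CPM (log2FC 4.63 ± 0.64). CCL22 in MEC2 was at 236.0 to 326.1 CPM, so that the level of PCL12 replicates 2 and 3 was above both other lines. IL32 (44.6 to 176.5 CPM against 7.94 to 15.3 CPM) and CXCL10 (21.5 to 30.3 CPM against 0.722 to 3.72 CPM) were higher too, and CXCL10 passed in 1 of 6 leave-one-out fits.

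Among the 10 lower members, the CCR6 ligand CCL20 was at 5.64, 5.17 and 3.09 CPM in PCL12 and 43.1, 123.9 and 125.8 CPM in HG3 (log2FC -4.40 ± 0.52, edgeR adjusted p = 7.68e-06), and the lymphotactin gene XCL1 at 2.50, 3.25 and 1.90 CPM against 19.0, 120.6 and 75.0 CPM (log2FC -4.81 ± 0.58, edgeR adjusted p = 8.05e-06). The inflammatory chemokine CCL3 was at 32.8, 41.2 and 11.7 CPM against 246.8, 517.7 and 344.7 CPM (log2FC -3.70 ± 0.68, edgeR adjusted p = 0.0024). Its relatives CCL4, CCL4L2 and CCL5 were lower as well, with log2FC -3.71, -3.68 and -1.24, and passed in 3, 4 and 5 of 6 leave-one-out fits. Reads of CCL3, CCL4 and CCL4L2 are shared with near copies. Among TNF family ligands, TNFSF9 (4-1BB ligand), TNFSF4 (OX40 ligand) and TNF were lower, at 20.7 to 38.2, 31.3 to 66.3 and 21.4 to 24.9 CPM in PCL12 and 66.5 to 145.8, 127.3 to 357.6 and 47.6 to 52.4 CPM in HG3. Of the 4 members of the list compared on chromosome 6, TNF was lower, LTB was higher and the others did not pass. The lymphocyte growth factor IL7 was at 0.577, 9.06 and 3.46 CPM against 12.3 to 28.5 CPM, lowest in PCL12 replicate 1, and passed in 3 of 6 leave-one-out fits.

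Receptors of migration and adhesion molecules were split evenly, with 6 of 31 higher and 6 lower (19.4% each), all seen in replicate 1, 6 and 3 of them passing with it alone, and a median log2FC of -0.43. CCR7, which guides lymphocytes into lymph nodes, was at 178.1, 201.7 and 152.4 CPM in PCL12 and 366.5, 469.3 and 836.4 CPM in HG3 (log2FC -1.65 ± 0.29, edgeR adjusted p = 0.000249). CXCR4, the receptor for the stromal chemokine CXCL12, was at 7.69, 16.0 and 26.5 CPM against 60.8, 114.7 and 148.5 CPM (log2FC -2.69 ± 0.64, edgeR adjusted p = 0.0134) and passed in 3 of 6 leave-one-out fits. ITGA5, PECAM1, CCR10 and VCAM1 were the other lower members, and 3 of the 6 passed without PCL12 replicate 1, without PCL12 replicate 2 or without HG3 replicate 1.

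The 6 higher members included 4 integrin chains, whereas the integrin chain ITGA5 was among the lower ones. ITGB7 was at 839.3, 549.5 and 700.4 CPM in PCL12 and 242.9, 183.0 and 204.5 CPM in HG3 (log2FC 1.73 ± 0.26, edgeR adjusted p = 3.86e-05), ITGB2 at 175.6 to 243.6 CPM against 44.6 to 103.2 CPM (log2FC 1.48 ± 0.30), and ITGB1 at 61.3 to 75.5 CPM against 10.1 to 32.6 CPM (log2FC 1.55 ± 0.32). ITGAX, which encodes CD11c, was at 102.4, 47.4 and 45.0 CPM against 1.52, 1.65 and 0.237 CPM (log2FC 5.87 ± 1.14, edgeR adjusted p = 0.00452). The junctional adhesion molecule JAM3 and the chemokine receptor CCR1 had log2FC 4.48 and 4.04. CD44 and ICAM1 overlapped between the lines and did not pass.

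By position, chromosome 6 stood apart from the other autosomes. Of its 659 genes compared, 551 (83.6%) had a log2FC below 0, 184 (27.9%) were lower in PCL12 by the test and 159 of these were seen in replicate 1, against 29 higher. The median log2FC on chromosome 6 was -0.83, against 0.04 over autosomal genes elsewhere, and the median difference from the HG3 mean was -0.86, -0.73 and -0.59 in PCL12 replicates 1, 2 and 3. The medians of the other 21 autosomes lay between -0.13 (chromosome 10) and 0.34 (chromosome 13). The shift ran along the chromosome. In windows of 20 neighbouring genes, 31 of the 32 windows on chromosome 6 had a median below 0 and 27 below -0.5, and 17 of the 22 windows below -0.8 in the genome lay there, the lowest from CARMIL1 to BTN3A3 (chr6:25279078-26453415, median -1.14). Left without the MHC class II list, the chromosome had the same median of -0.83, but that list held only 13 of the 659 genes and could hardly move it. In MEC2 the median against HG3 was -0.30. Copy number was not measured. No other autosome had a comparable share of lower genes, although windows on chromosome 19 (PBX4 to ZNF708, median -0.98) and chromosome 18 (PIGN to TIMM21, median -1.01) were as low.

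**Figure D3:**
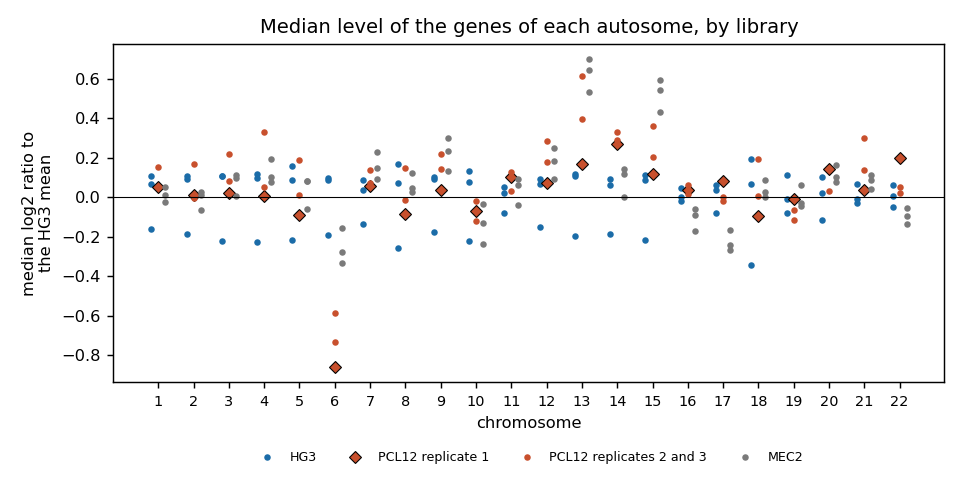
For each autosome, points give the median over its genes of log2(CPM + 0.5) minus the mean of the HG3 libraries, for each PCL12, HG3 and MEC2 library. The 3 PCL12 libraries lie at -0.86, -0.73 and -0.59 on chromosome 6, below every other library and chromosome shown, and at 0.17, 0.40 and 0.61 on chromosome 13.

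MHC class II molecules, the HLA-DR, DQ and DP heterodimers by which B cells show peptides to CD4 T cells, are encoded on chromosome 6, and their classical genes were lower in PCL12. Of 19 genes of the class II pathway compared, 7 were lower (36.8%), all seen in replicate 1, and 6 passed with replicate 1 as the sole PCL12 library. HLA-DRA, the invariant DR alpha chain (chr6:32439878-32445046), was at 706.4, 620.8 and 499.1 CPM in PCL12 and 2673, 2526 and 2733 CPM in HG3 (log2FC -2.12 ± 0.26, edgeR adjusted p = 1.82e-06). The DR beta gene HLA-DRB1 was at 231.1, 248.7 and 176.7 CPM against 833.0, 796.5 and 896.8 CPM (log2FC -1.94 ± 0.28, edgeR adjusted p = 1.69e-05). The DQ beta gene HLA-DQB1 was at 227.5, 177.7 and 120.3 CPM against 751.3, 871.0 and 780.3 CPM (log2FC -2.19 ± 0.28, edgeR adjusted p = 3.82e-06). In none did the lines overlap. The fold of each was larger than the chromosome's median of -0.83, which holds for any lower gene that passed the threshold of 1. HLA-DPB1, HLA-DRB5, HLA-DQA1 and HLA-DPA1 were the other 4, with log2FC -1.98, -1.99, -1.65 and -1.42. Reads of the DR and DQ beta genes can be shared with near copies, so their levels are uncertain.

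None of the 12 other genes of the pathway passed both the test and the fold threshold. The 13 class II list genes on chromosome 6 held all 7 lower genes, and the median over the members elsewhere was 0.31. CD74, the invariant chain that guards the peptide groove (chromosome 5), was at 3956, 2411 and 2551 CPM in PCL12 and 5106, 6946 and 4793 CPM in HG3 (log2FC -0.92 ± 0.27, edgeR adjusted p = 0.0302), without overlap but under the fold threshold. CIITA, the coactivator without which class II genes are silent, was at 241.2, 300.8 and 206.7 CPM against 295.5, 117.4 and 205.0 CPM (log2FC 0.28 ± 0.32, edgeR adjusted p = 0.669), and the lines overlapped. HLA-DMB, a chain of the peptide editor, was at 55.0, 31.2 and 41.7 CPM against 37.5, 13.6 and 12.2 CPM and did not pass. Over all 6 libraries no class II gene was called higher by edgeR or limma-voom, 1 was by DESeq2, and 3 had an unadjusted p under 0.05 on that side, while edgeR called 1 without PCL12 replicate 1 or without HG3 replicate 1.

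Class II promoters share a Y box, which holds an inverted CCAAT core read as CTGATTGG in the direction of the gene. The bases before the start of HLA-DRB1 and HLA-DQB1 are shown because both genes were lower in PCL12 and both hold these letters, in capitals (RefSeq, GRCh38.p14, minus strand, written 5′ to 3′). The first is chr6:32589849-32590098 with the letters 49 to 42 bases before the start, and the second chr6:32666685-32666907 with the letters 91 to 84 bases before it. In the second, the 27 bases next to the start overlap annotated exons and are not printed, and the stretch printed overlaps none.
HLA-DRB1: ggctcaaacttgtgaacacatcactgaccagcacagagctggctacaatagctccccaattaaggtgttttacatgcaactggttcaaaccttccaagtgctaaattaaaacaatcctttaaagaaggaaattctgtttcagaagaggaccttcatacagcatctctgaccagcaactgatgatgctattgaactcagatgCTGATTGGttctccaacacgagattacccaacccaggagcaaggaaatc
HLA-DQB1: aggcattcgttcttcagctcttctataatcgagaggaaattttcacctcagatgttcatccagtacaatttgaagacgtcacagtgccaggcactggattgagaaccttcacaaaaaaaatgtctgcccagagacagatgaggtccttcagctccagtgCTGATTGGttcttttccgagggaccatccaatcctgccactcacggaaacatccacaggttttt
On either strand of the 250 bases before a start, CTGATTGG was found in 1337 of 35116 windows (3.81%). Of the 16 class II list genes with a window, 7 held it, 3 of the 6 lower genes (HLA-DRB1, HLA-DRB5 and HLA-DQB1) and 4 of the 10 others (HLA-DQA2, HLA-DQB2, HLA-DMA and RFX5). The letters were therefore present in genes that were lower and in genes that were not.

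For class I presentation, which shows peptides to CD8 T cells, 4 of 21 genes were lower in PCL12 and 1 was higher (19.0% and 4.76%). All 4 lower genes lay on chromosome 6, where 11 of the list were compared, and all were seen in replicate 1, but 2 passed without PCL12 replicate 3 and 1 with replicate 1 as the sole PCL12 library. The higher genes numbered 2 with library totals, without PCL12 replicate 3 or without HG3 replicate 1. HLA-F was at 48.1, 100.5 and 49.8 CPM in PCL12 and 187.3, 215.8 and 189.2 CPM in HG3 (log2FC -1.58 ± 0.29, edgeR adjusted p = 0.000395), and TAPBP, the tapasin that loads peptides, at 175.8 to 211.7 CPM against 377.7 to 579.0 CPM (log2FC -1.34 ± 0.25). HLA-C and HLA-E had log2FC -1.09 and -1.17, and HLA-B, at -0.99, lay just under the threshold (edgeR adjusted p = 0.01). B2M, the light chain of class I on chromosome 15, was at 1723 to 1981 CPM against 1801 to 2292 CPM and did not pass. ERAP2, an aminopeptidase that trims class I peptides, was the higher gene, at 125.3, 89.4 and 137.3 CPM against 19.2, 26.4 and 23.1 CPM (log2FC 2.36 ± 0.26, edgeR adjusted p = 4.84e-07).

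A further list held stress-inducible genes that halt the cell cycle, repair DNA or lead to cell death, and is not a list of the DNA damage response as a whole. Of 29 compared, 13 were lower in PCL12 (44.8%, against 7.62% of all genes), 12 of them seen in replicate 1, 16 did not pass, and the median log2FC was -0.91. Leaving aside CDKN1A, SESN1 and POLH on chromosome 6, 10 of the remaining genes were lower and the median was -0.78. With replicate 1 as the sole PCL12 library, 6 passed. No member was called higher by edgeR or limma-voom, 1 was by DESeq2, and 1 had an unadjusted p under 0.05 on that side. Between MEC2 and HG3, a comparison that shares the HG3 libraries, 13 were lower, where 7.42% of all genes were higher and 8.36% lower.

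CDKN1A, the cell cycle inhibitor p21 (chr6:36676460-36687337), was at 30.3, 37.1 and 21.2 CPM in PCL12 and 269.0, 140.6 and 384.5 CPM in HG3 (log2FC -3.17 ± 0.42, edgeR adjusted p = 1.55e-05). The death receptor gene TNFRSF10B was at 60.3, 84.5 and 64.6 CPM against 286.3, 218.4 and 480.3 CPM (log2FC -2.23 ± 0.30, edgeR adjusted p = 7.17e-06), and TNFRSF10A, its neighbour on chromosome 8, at 2.44, 4.92 and 4.02 CPM against 28.9, 19.1 and 42.7 CPM (log2FC -3.00 ± 0.39, edgeR adjusted p = 5.62e-06). DDB2, which recognises ultraviolet damage, was at 18.2, 15.6 and 11.8 CPM against 66.2, 84.6 and 66.3 CPM (log2FC -2.25 ± 0.25, edgeR adjusted p = 4.11e-07). In all of these each PCL12 library lay below each HG3 library. PHLDA3, an inhibitor of AKT, was at 0, 0.606 and 0 CPM against 10.1, 32.5 and 27.4 CPM (log2FC -6.95 ± 1.68, edgeR adjusted p = 0.0184). ZMAT3, FDXR, SESN1, FAS and PLK3 were lower with log2FC -2.15, -1.54, -2.79, -1.19 and -1.26. GADD45A passed without being seen in replicate 1, POLH overlapped between the lines, and both, with PLK3, passed in 2 of 6 leave-one-out fits.

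In the BCL2 family, which sets the threshold of apoptosis, 1 of 19 genes was higher in PCL12 and 3 were lower (5.26% and 15.8%), of which 1 and 1 passed with replicate 1 as the sole PCL12 library, and 2 were higher without HG3 replicate 1. HRK, a BH3-only sensitizer, had 10.9, 7.13 and 3.78 CPM in PCL12 and no count in HG3, at least 72.7-fold higher (edgeR adjusted p = 1.41e-05). BBC3, the BH3-only protein PUMA, which is also in the list of arrest, repair and death genes, was at 12.1, 8.45 and 2.83 CPM against 30.9, 41.5 and 45.4 CPM (log2FC -2.34 ± 0.43, edgeR adjusted p = 0.000456), and BCL2L10, an antiapoptotic relative, at 0.385 to 1.21 CPM against 16.3 to 24.7 CPM (log2FC -4.38 ± 0.59). The NF-kB target BCL2A1 was lower (log2FC -1.31 ± 0.35, edgeR adjusted p = 0.0142) and passed in 2 of 6 leave-one-out fits. BCL2, at 93.0 to 195.4 CPM against 109.5 to 477.9 CPM, and MCL1 overlapped between the lines.

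**Figure D4:**
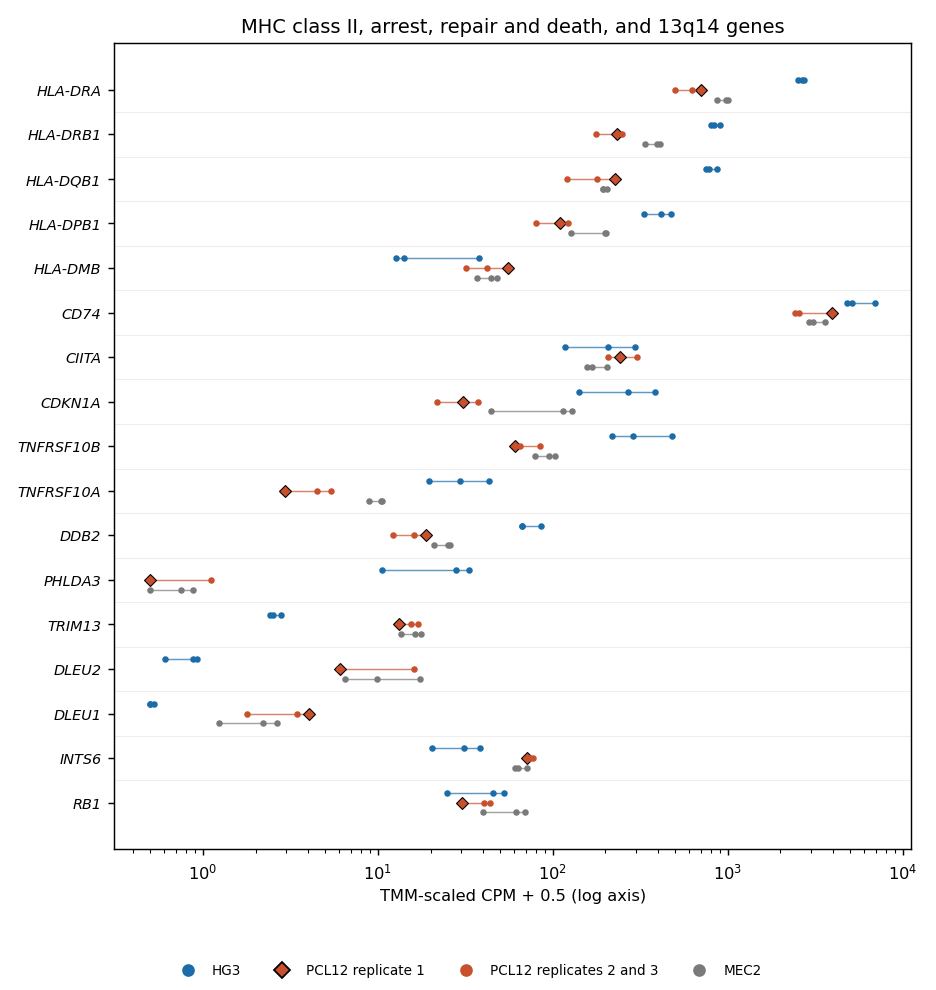
Dots give CPM + 0.5 on a log axis for 17 genes of antigen presentation, of the arrest, repair and death list and of chromosome 13 in each unstimulated library of HG3, PCL12 (replicate 1 as a diamond) and MEC2. HLA-DRA, HLA-DRB1, HLA-DQB1, HLA-DPB1, CDKN1A and the TNFRSF10 genes lie lower in every PCL12 library than in HG3, whereas CD74 differs less, CIITA and RB1 overlap, and TRIM13, DLEU2, DLEU1 and INTS6 lie higher in PCL12.

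The NF-kB genes TNFAIP3, NFKBIE and NFKBIZ were among the lower genes. Of 36 genes of the pathway and its targets, 6 were lower in PCL12 (16.7%), 5 of them seen in replicate 1, and the median log2FC was -0.43, while 3 passed without HG3 replicate 3 and 4 with replicate 1 as the sole PCL12 library. TNFAIP3, which encodes the inhibitor A20, was at 130.8, 376.4 and 141.5 CPM in PCL12 and 602.4, 569.6 and 1079 CPM in HG3 (log2FC -1.79 ± 0.42, edgeR adjusted p = 0.00727), with PCL12 replicate 2 the highest of its line. NFKBIE, the inhibitor IkB epsilon, was at 35.1, 71.7 and 30.0 CPM against 150.5, 163.4 and 194.1 CPM (log2FC -1.89 ± 0.31, edgeR adjusted p = 0.000121), and both genes, with SOD2, lie on chromosome 6. Of the 4 members compared on that chromosome 3 were lower, and of the members elsewhere 3 were lower, with a median log2FC of -0.34 there. NFKBIZ, which encodes IkB zeta, was at 37.9, 60.4 and 37.4 CPM against 126.4, 93.0 and 225.2 CPM (log2FC -1.71 ± 0.33, edgeR adjusted p = 0.000614). TNIP1, a partner of A20, was not seen in replicate 1. TRAF1 and NFKB2 were at 276.8 to 775.8 and 213.1 to 530.2 CPM in PCL12, 419.7 to 1005 and 506.1 to 937.5 CPM in HG3, and did not pass. No member was called higher by edgeR, DESeq2 or limma-voom, and 1 had an unadjusted p under 0.05 on that side.

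Host genes of EBV-driven growth, a list that shares members with those above, showed 3 of 27 higher and 6 lower in PCL12 (11.1% and 22.2%), with a median log2FC of -0.41. CCL22, CCL17 and the Notch target HES1 (4.17, 6.49 and 9.05 CPM against 0.835, 3.25 and 1.76 CPM) were higher, and FCER2, CCR7, TNF, PLEK and EBI3 were among the lower genes. The 3 higher genes and 5 of the 6 lower ones were seen in replicate 1. PLEK, a substrate of protein kinase C, was the exception, at 516.0, 570.0 and 285.5 CPM against 894.6, 623.0 and 1290 CPM, and passed in 2 of 6 leave-one-out fits, while HES1 passed in 3. EBI3, a subunit of IL-27 and IL-35, overlapped between the lines at 64.7 to 144.0 CPM against 134.6 to 258.4 CPM and passed in 2 of 6 leave-one-out fits. With library totals in place of TMM scaling 2 were lower, and without PCL12 replicate 1 or HG3 replicate 3 the count was 3, while replicate 1 as the sole PCL12 library left 2 higher and 1 lower.

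Of the 16 genes of the 13q14 list compared, 7 were higher in PCL12 and none lower (43.8% higher, against 8.03% of all genes), 6 of them seen in replicate 1 and 4 passing with it alone, with a median log2FC of 0.83, and 7 were higher between the CpG-treated libraries. No member was lower at an unadjusted p under 0.05 in edgeR, nor called lower by DESeq2 or limma-voom. TRIM13, a ubiquitin ligase of the minimally deleted region (chr13:49995888-50020481), was at 12.7, 14.9 and 16.5 CPM in PCL12 and 2.31, 1.91 and 2.00 CPM in HG3 (log2FC 2.82 ± 0.31, edgeR adjusted p = 4.32e-07). DLEU2, the noncoding host gene of miR-15a and miR-16-1 (chr13:49956670-50125720, minus strand), was at 5.55, 5.53 and 15.6 CPM against 0.374, 0.103 and 0.421 CPM (log2FC 4.79 ± 0.55, edgeR adjusted p = 7.69e-07). DLEU1, on the opposite strand, was at 3.56, 1.28 and 2.97 CPM in PCL12 and had 1 count in HG3 (ratio 276.5, 95% counting interval 49.2 to 10960.0). The lines did not overlap for any of the 3. MEC2, whose transcripts were also found in PCL12 replicates 2 and 3, had 12.98 to 17.2 CPM of TRIM13, 6.002 to 16.9 CPM of DLEU2 and 0.735 to 2.17 CPM of DLEU1. Its log2FC against the same HG3 libraries was 2.88 for TRIM13 and 5.07 for DLEU2, and 5 genes of the list were higher and 0 lower. TRIM13 and DLEU1 overlap DLEU2 on the other strand, and whether reads were counted by strand is not given in the sources used here, so the split between these genes is uncertain.

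The 2 microRNAs of this locus are shown because DLEU2, their host gene, was low in HG3. Both hairpins lie in an intron of the reference DLEU2 transcript (chr13:50045233-50049583), MIR16-1 at chr13:50048973-50049061 and MIR15A at chr13:50049119-50049201, minus strand, and exons of 8 of the 29 DLEU2 transcripts annotated overlap MIR15A. The mature sequences (RefSeq, GRCh38.p14) share 1 seed, bases 2 to 8, given in capitals.
hsa-miR-16-5p: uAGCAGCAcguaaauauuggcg
hsa-miR-15a-5p: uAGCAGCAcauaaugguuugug
The libraries do not measure the mature forms. MIR16-1 had 0 counts in either line, and MIR15A had 0 in HG3 and 7 in PCL12, so nothing can be said of the microRNAs themselves.

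The neighbours of the locus differed to unequal extents. INTS6, a subunit of the Integrator complex, was at 71.1, 73.6 and 76.6 CPM in PCL12 and 30.6, 19.8 and 37.8 CPM in HG3 (log2FC 1.33 ± 0.26, edgeR adjusted p = 0.000796), and RCBTB1, ARL11 and KPNA3 had log2FC 1.13, 3.71 and 1.15, KPNA3 without being seen in replicate 1. RB1, the retinoblastoma suppressor, was at 29.7, 39.7 and 43.0 CPM against 52.1, 24.5 and 45.2 CPM and overlapped (log2FC -0.12 ± 0.30, edgeR adjusted p = 0.905). In windows of 20 genes, the 3 windows from MRPS31 to ALG11 (chr13:40729128-52079232) had medians of 1.67, 0.93 and 0.83, with 11, 9 and 7 higher genes and none lower, and in PCL12 replicate 1 the medians were 1.30, 0.61 and 0.82. Between MEC2 and HG3 the same windows had medians of 1.96, 1.04 and 0.83, and the median over chromosome 13 was 0.59 in MEC2 and 0.17 in PCL12 replicate 1. The first held TNFSF11 and LACC1, named after their values were seen. TNFSF11, which encodes the osteoclast cytokine RANKL (chr13:42562736-42608013), was at 38.8, 30.8 and 33.6 CPM in PCL12, 0.352, 0.413 and 0 CPM in HG3 and 6.65 to 8.49 CPM in MEC2 (log2FC 7.14 ± 0.68, edgeR adjusted p = 2.13e-07). LACC1, a laccase domain enzyme of inflammation, was at 8.05, 13.8 and 7.45 CPM against 2 counts in HG3 (ratio 482.7, 95% counting interval 133.3 to 3991). The actin bundler LCP1 lay in the second window. Copy number at these loci was not measured.

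Interferon-stimulated genes had 5 of 41 higher and 4 lower (12.2% and 9.76%), with a median log2FC of -0.15. GBP1, an interferon-inducible GTPase, was at 28.6, 41.9 and 39.95 CPM in PCL12 and 2.51, 3.66 and 5.68 CPM in HG3 (log2FC 3.22 ± 0.37, edgeR adjusted p = 6.54e-07), while IFIT2 was at 9.01, 19.7 and 8.75 CPM against 52.5, 39.6 and 47.9 CPM (log2FC -1.91 ± 0.34) and TRIM22 at 65.4 to 116.6 CPM against 189.2 to 298.9 CPM (log2FC -1.51 ± 0.28). DDX60 and GBP5 were not seen in replicate 1. Without PCL12 replicate 2 the higher genes numbered 2, and without HG3 replicate 3 the lower genes numbered 2, while with replicate 1 as the sole PCL12 library 2 of the higher and 2 of the lower genes passed.

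Few genes of the cell cycle passed the test. Most had a log2FC above 0, namely 31 of 35 DNA replication and G1/S genes and 24 of 32 mitosis and G2/M genes. The median of the mitosis and G2/M genes was 0.46. Between MEC2 and HG3, 15 and 13 members of these lists were higher, and 2 and 0 lower. In the DNA replication and G1/S list 3 of 35 were higher (8.57%), with a median log2FC of 0.66. CDKN2A, the gene of the p16 and p14 inhibitors, was at 55.2, 45.0 and 43.6 CPM in PCL12 and 6.86, 16.5 and 5.24 CPM in HG3 (log2FC 2.34 ± 0.34, edgeR adjusted p = 2.06e-05). CCND1 and CDKN2B each passed in 2 of 6 leave-one-out fits, and 8 genes of the list passed without PCL12 replicate 2, 6 without HG3 replicate 1 and 11 with library totals, of which 1, 1 and 3 were among the 3 above. In the mitosis and G2/M list 3 of 32 were higher (9.38%), CDC20, DLGAP5 and HMMR, with log2FC 1.12, 1.01 and 1.00, none of them seen in replicate 1, and the count ran from 0 without PCL12 replicate 3 or HG3 replicate 3 to 8 without HG3 replicate 1, and was 6 with library totals. MKI67 was at 574.8 to 705.5 CPM against 305.6 to 686.5 CPM and did not pass. Neither cell cycle list had a member lower at an unadjusted p under 0.05 in edgeR, nor called lower by DESeq2 or limma-voom.

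Among 30 genes of glycolysis and hypoxia, 10% were higher and 3.33% lower, against 8.03% and 7.62% of all genes. SLC2A1, HK1 and ANKRD37 were the higher genes, with log2FC 1.06, 1.13 and 1.19. All were seen in replicate 1, but none of them passed without PCL12 replicate 3 or without HG3 replicate 2. EGLN3, the oxygen-sensing prolyl hydroxylase, had 2 counts in PCL12 and 5.32, 3.30 and 5.03 CPM in HG3 (ratio 247.1, 95% counting interval 68.1 to 2046). GAPDH was at 3599 to 5838 CPM against 3780 to 7283 CPM and overlapped. Of 25 genes of cholesterol and fatty acid synthesis, edgeR called 0, with 4 higher and 0 lower at an unadjusted p under 0.05, DESeq2 called 0 and limma-voom 1 higher, and edgeR called 1 higher with library totals, without PCL12 replicate 3 or without HG3 replicate 3. Of 21 vimentin, lamin, annexin, S100 and galectin genes, 1 was higher and 3 lower (4.76% and 14.3%), or 1 lower without PCL12 replicate 3. In replicate 1 the higher gene and 2 of the lower genes were seen. ANXA4, an annexin, was at 19.2, 22.96 and 21.3 CPM in PCL12 and 82.1, 48.5 and 68.1 CPM in HG3 (log2FC -1.65 ± 0.27, edgeR adjusted p = 9.78e-05). S100A4, the higher gene, was at most 2.35 CPM and passed in none of the 6 leave-one-out fits, and VIM did not pass (log2FC -1.51 ± 0.50, edgeR adjusted p = 0.0736).

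**Figure D5:**
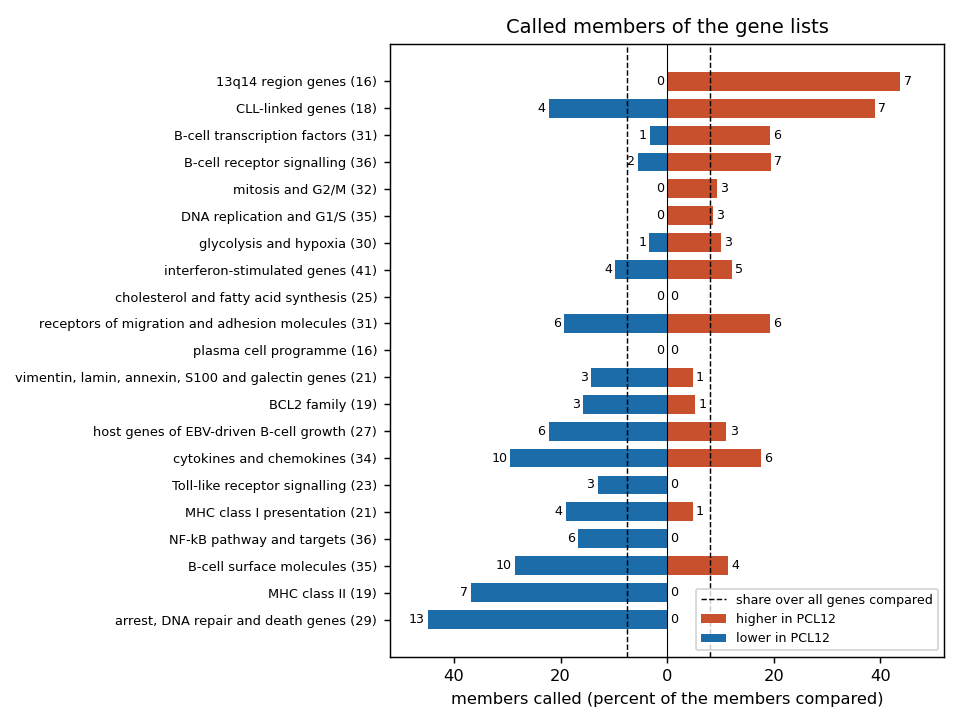
Bars give, for each of 21 gene lists, the percent of compared members higher (right) or lower (left) in PCL12 by edgeR, with dashed lines at the 8.03% and 7.62% of all genes compared. The arrest, DNA repair and death genes (44.8% lower), MHC class II (36.8% lower) and 13q14 genes (43.8% higher) are one-sided, and plasma cell and cholesterol genes show no bar.

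Genes that passed over the 3 PCL12 libraries without being seen in replicate 1 numbered 100 higher and 94 lower. The MEC2 mean was above PCL12 replicate 1 for 85 of those 100, and for 258 of the 1032 higher genes that were seen there. It was below PCL12 replicate 1 for 55 of the 94, and for 240 of the 980. The level in replicate 1 also sorted the genes into these groups, so the contrast between them is partly set by the sorting. RGS20, a regulator of G protein signalling, was at 0.257, 6.28 and 5.90 CPM in PCL12, at 0 in HG3 and at 14.8 to 19.2 CPM in MEC2, and TC2N at 0.449, 4.14 and 1.32 CPM against 2 counts in HG3 and 3.56 to 5.85 CPM in MEC2. XRCC3, TUBGCP5 and C3orf58 stood lower in replicate 1 than in replicates 2 and 3, with XRCC3 at 60.0, 79.1 and 82.8 CPM. On the lower side, MVP, PPP1R18, INTS3, DAXX and PACS1, of which MVP had the largest fold (log2FC -1.26), missed the difference of 1 in replicate 1 by a small margin, as with MVP at 82.8, 64.9 and 52.9 CPM against 136.2 to 182.2 CPM in HG3. The part of MEC2 transcripts in these differences was not tested.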

How the data were processed

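The authors extracted total RNA, made stranded 3′ libraries (Lexogen QuantSeq per the labels) and deposited 1 table of raw counts, whole numbers of reads per gene symbol, for 18 libraries. The submitters' processing notes name FastQC, MultiQC, Trimmomatic, STAR, featureCounts and the hg38 build, with versions not given in the sources used here. No column was left unmapped (0 unused).

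The deposited counts were tested with edgeR 4.0.16 (quasi-likelihood, robust, TMM scaling, R 4.3.3), with 1 mean for each of 6 groups over 18 libraries (12 residual degrees of freedom). The 31872 genes with at least 10 counts over the 18 libraries were fitted and adjusted together by Benjamini-Hochberg, and results were counted over the 14101 genes whose mean CPM, by library totals, reached 1 in the 6 libraries compared. CPM values in the text are TMM-scaled. The authors used limma on the CpG comparisons, and a count test was used here because the counts are raw. Errors are standard errors from the fold change and its F statistic. Folds against a line without counts use a floor of 3 counts per library, and where a line had 1 to 3 counts a ratio with a 95% counting interval is given. Alternatives used DESeq2 1.42.0, limma 3.58.1, other scalings, filters and groups. The fit was tested on simulated data. Positions are from GENCODE v44 (GRCh38), matched by symbol for 12898 of the 14101 genes, 438 of them on X or Y, with 1203 unmatched. Promoter and microRNA sequences are from RefSeq. Tables were built with Python 3.11.15 and pandas 2.3.3. Replicate pairs within a line differed by more than sampling noise (chi-square per gene 80.4 to 299.5), so each library counted once.

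Named genes were, first, the 10 with the smallest p-values and the 8 with the largest difference in CPM in each direction, among autosomal genes outside immunoglobulin segments that passed, did not overlap and were seen in PCL12 replicate 1. To these were added, whether or not the lines overlapped or replicate 1 showed the difference, up to 4 passing members per direction and the 2 most abundant members that did not pass of each gene list. The others were 5 genes per direction not seen in replicate 1, and abundant immunoglobulin constant genes. Further passing list members and the other genes named were added after their values were seen. The comparison, members and gene lists were chosen with earlier results of these data known. Lists were described by counts and medians, with no set test. Some genes are not reported here.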

Additional observations from a re-analysis of the deposited data

How the results depend on the processing

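The counts of higher and lower genes stayed within 1.5 times those reported (1132 and 1074) in every alternative but 1. With PCL12 replicate 1 as the sole library of its line they fell to 644 and 609. DESeq2 gave 1326 and 1320, limma-voom 1262 and 1123, RLE scaling 1117 and 1123, library totals 1390 and 878, filterByExpr 1200 and 1179, no filter 1357 and 1288, the fit of the 14101 genes alone 1252 and 1204, the fit of the 6 libraries alone 915 and 948, mitochondrial genes left out 1100 and 1112, the nominal p under 0.01 1267 and 1191, and no fold threshold 1249 and 1190. Leaving out 1 library gave 991 to 1185 higher and 870 to 1043 lower genes. Library totals shifted the median of all genes by 0.16 on the log2 scale and the share of higher genes among calls from 51.3% to 61.3%, and under them the chromosome 6 median was -0.68. With the replicate number as a block the counts were 1177 and 1100, but the numbers do not pair libraries across lines: deviations of same-numbered libraries correlated at -0.21, -0.14 and -0.002, and none of the 3 PCL12 libraries correlated best with its own number. The alternatives for the chromosome medians were added after the data were seen. Of 186 genes chosen for naming that passed, 125 passed in all 6 fits that left out 1 library. Under PCL12 replicate 1 alone 79 no longer passed, under CpG treatment 25, in the fit of the 6 libraries 22, under library totals 19, under limma-voom 10, under the block 9 and under DESeq2 2, and no sign reversed. Low depth limits statements on genes near the floor of 3 counts.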
